A study of Homo sapiens with 12 samples.

Results

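The TRIM genes were followed across 8 RNA-sequencing libraries of the human embryonic stem cell (hESC) line WA26. Members were all genes of the count table whose symbol is TRIM, a number and at most 1 further letter, and 72 of 28278 genes met this rule. The groups were wild-type (WT) and UBQLN1 knockout (KO) cells at normal O2, and KO cells either kept at 5% O2 or given the antioxidant N-acetylcysteine (NAC), with 2 libraries in each. UBQLN1 encodes ubiquilin 1, a shuttle that carries ubiquitinated proteins to the proteasome, and the knockout was made with CRISPR-Cas9. All KO groups share that knockout. The study describes several clones of each genotype and the labels do not give the clone of a library, so differences between clones and the effect of UBQLN1 loss cannot be told apart. The labels do not say whether replicates were separate cultures, so p-values may measure technical spread only. The study names DMSO as the vehicle of NAC, the labels name none, and its text and legends differ on how long cells were kept at 5% O2. Its legend has NAC given over several passages. Time in treatment and passage number may therefore differ between groups, and cannot be told apart from the treatments. WT libraries at 5% O2 or with NAC were not analysed here.

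TRIM proteins share a tripartite motif of a RING finger, B-box zinc fingers and a coiled coil. The RING finger makes most of them E3 ubiquitin ligases, which pass ubiquitin from an E2 conjugating enzyme to a target protein, and the region after the coiled coil sets what each member binds. Members are known for restricting viruses and steering interferon signalling, for silencing chromatin, for binding microtubules and, in early embryonic cells, for repressing mRNAs.

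The libraries held 31236968 to 41639350 counts. UBQLN1 mRNA was at 221.2 and 196.8 CPM (a count relative to its library size, scaled by TMM) in WT and at 42.3 to 62.4 CPM in the 6 KO libraries. All 10 genes of a list of undifferentiated hESC markers passed the filter on low counts, and their summed level was 7747 to 7784 CPM in WT, 7429 to 7710 in untreated KO, 7241 to 7301 at 5% O2 and 6451 to 7138 with NAC. The first NAC library stood apart by fibroblast genes. In it DCN held 1809 counts, COL3A1 1114 and LUM 148, whereas DCN and LUM were at 0 in the other 7 libraries and COL3A1 was at no more than 8 counts. Of 10 mesenchymal markers 6 passed the filter, and all 10 summed to 947.5 CPM in the first NAC library, 549.3 in the second and 514.5 to 629.3 in the others. The part of this library in the NAC results was measured by leaving it out, and those values are given below. Even numbers made up 66.6 to 70.7% of the counts from 1 to 20 and 48.8 to 52.2% of those from 1000 to 2000; the cause was not tested, and counting intervals may be too narrow.

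Of the 72 members 43 passed the filter on low counts and 29 did not. Among the latter, 18 were at 0 in every library, namely TRIM10, TRIM15, TRIM34, TRIM40, TRIM42, TRIM43, TRIM48, TRIM49, TRIM49B, TRIM49C, TRIM51, TRIM60, TRIM64, TRIM64B, TRIM64C, TRIM73, TRIM74 and TRIM77. The other 11 never exceeded 10 counts in a library. A floor of 3 counts applies to each 0. Reads that matched several places were not counted, and many of the silent members are near copies of each other. Over 40% of the transcript's 31-base words were repeated on the primary chromosomes for 15 members, and 13 of these were not tested. The tested ones were TRIM16 (43.6%) and TRIM16L (61.8%), a pseudogene of the same family. For 8 members, TRIM10, TRIM15, TRIM26, TRIM27, TRIM31, TRIM39, TRIM40 and TRIM69, over 80% of the words also lay on the alternate-locus scaffolds of hg38, and only TRIM27 of these passed the filter. TRIM34 lies wholly within the span of TRIM5, where reads shared by both are not counted. A 0 in these members therefore cannot be told apart from reads that were left out.

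TRIM28 was the most abundant member in each group. It is the corepressor that KRAB zinc finger proteins recruit to silence retroelements. Per kilobase of transcript, the scale on which genes were compared, its mean over the 8 libraries was 464.1 CPM. TRIM71, an RNA-binding repressor of mRNAs that is typical of pluripotent cells, followed at 58.7 CPM per kilobase. TRIM37, which limits centriole assembly, was at 24.0, TRIM65, a ligase for the RNA sensor MDA5, at 20.1 and TRIM25, a ligase for the RNA sensor RIG-I, at 17.2. TRIM4 was at 2.02 CPM per kilobase, rank 31.

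**Figure D1:**
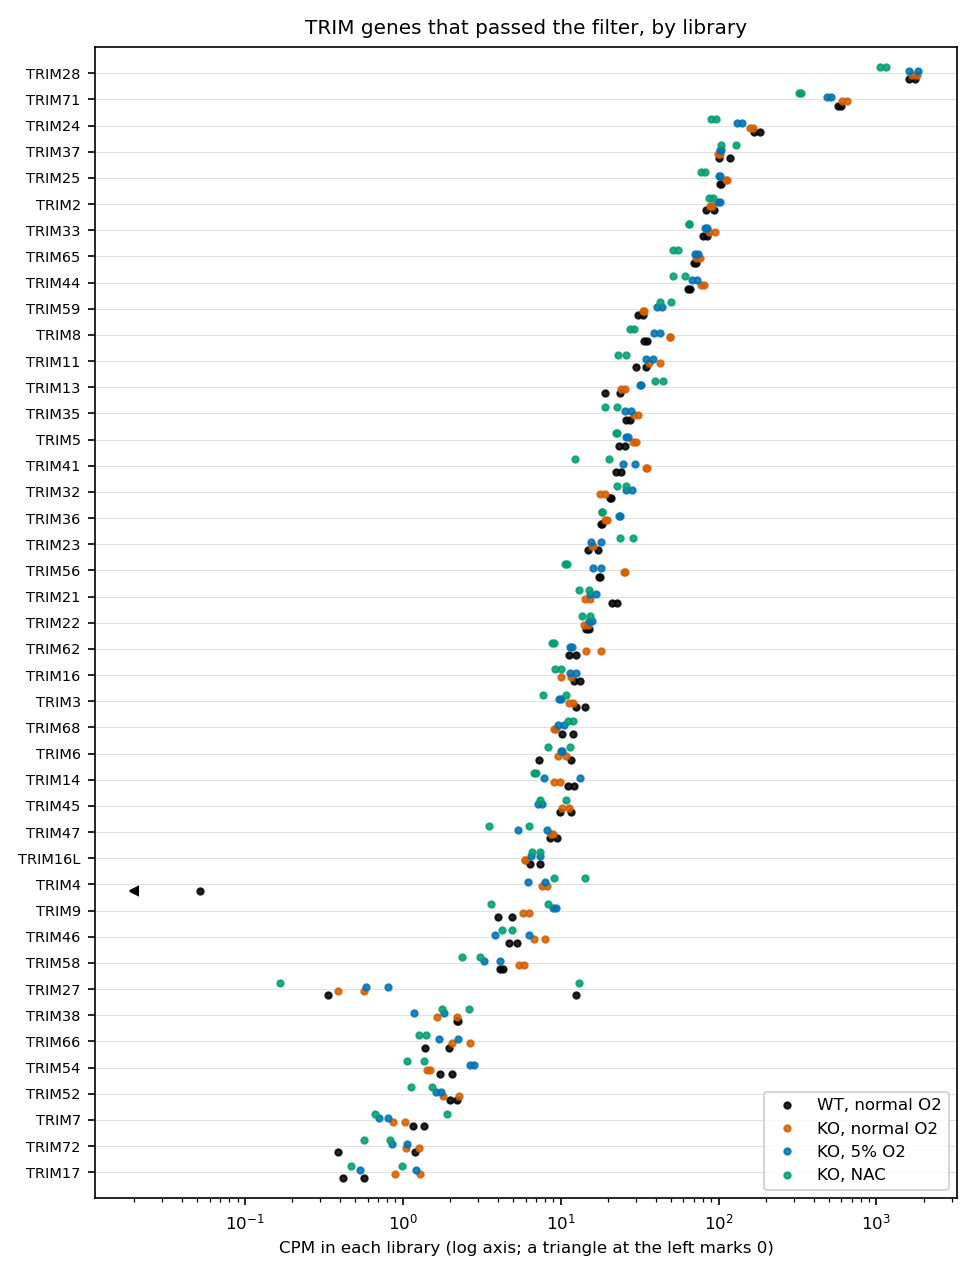
Level of each TRIM gene that passed the filter on low counts, in CPM on a log axis, with 1 point for each of the 8 libraries, coloured by group; a triangle marks a value of 0. TRIM28 lay at 1054 CPM or more in every library, and TRIM4 stood at 0 and 0.0519 CPM in WT and above 6 CPM in every KO library.

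TRIM4 was near 0 in WT and present in every KO library. It encodes a RING ligase known for attaching ubiquitin to RIG-I, and lies on chromosome 7 (chr7:99890403-99919530, GRCh38). Its counts were 0 and 2 in WT, 303 and 313 in untreated KO, 252 and 255 at 5% O2, and 549 and 272 with NAC. The WT and KO libraries did not overlap. Scaled for library size, the levels were 8.21 and 7.60 CPM in untreated KO, 6.18 and 7.95 at 5% O2, and 14.3 and 9.09 with NAC. The ratio of summed counts, untreated KO (616) over WT (2), was 284 after scaling for depth. Its exact 95% interval of 78.2 to 2349 covers counting error only and may be too narrow, given the even counts described above. TRIM4 was singled out for this pattern, so the interval is not read as a test, and no test of TRIM4 is given. In bulk samples, fewer cells of a type and less RNA per cell cannot be told apart.

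At most 3 counts in each WT library and at least 100 in every KO library were found for 2 of 28278 genes. They were TRIM4 and the zinc finger gene ZNF723, and 0 genes had the reverse. TRIM4 was chosen for this pattern, so nothing about TRIM4 is read from this count. ZNF723 lies on chromosome 19. It was at 0 counts in both WT libraries and at 136 and 183 in untreated KO.

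The genes beside TRIM4 did not show its pattern. The 5 protein-coding genes listed before it were the cytochrome P450 genes CYP3A5, CYP3A7, CYP3A4 and CYP3A43 and the olfactory receptor gene OR2AE1, and none exceeded 6 counts in a library. On the other side, GJC3, a connexin gene, was at 1.74 and 1.58 CPM in WT and 0.894 and 1.46 in untreated KO. AZGP1 did not exceed 6 counts. The zinc finger genes ZKSCAN1 (log2 fold change 0.45, adjusted p = 0.136), ZSCAN21 (-0.09, adjusted p = 0.845) and ZNF3 (0.02, adjusted p = 0.968) did not pass in KO against WT. ZKSCAN1 fell in KO cells at 5% O2 (-0.55, adjusted p = 0.0443) and with NAC (-0.40, adjusted p = 0.0432), and ZNF3 rose with NAC (0.39, adjusted p = 0.0246). With the trend on transcript length and GC removed, as described below, these 3 calls were lost (adjusted p = 0.167, 0.544 and 0.079).

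**Figure D2:**
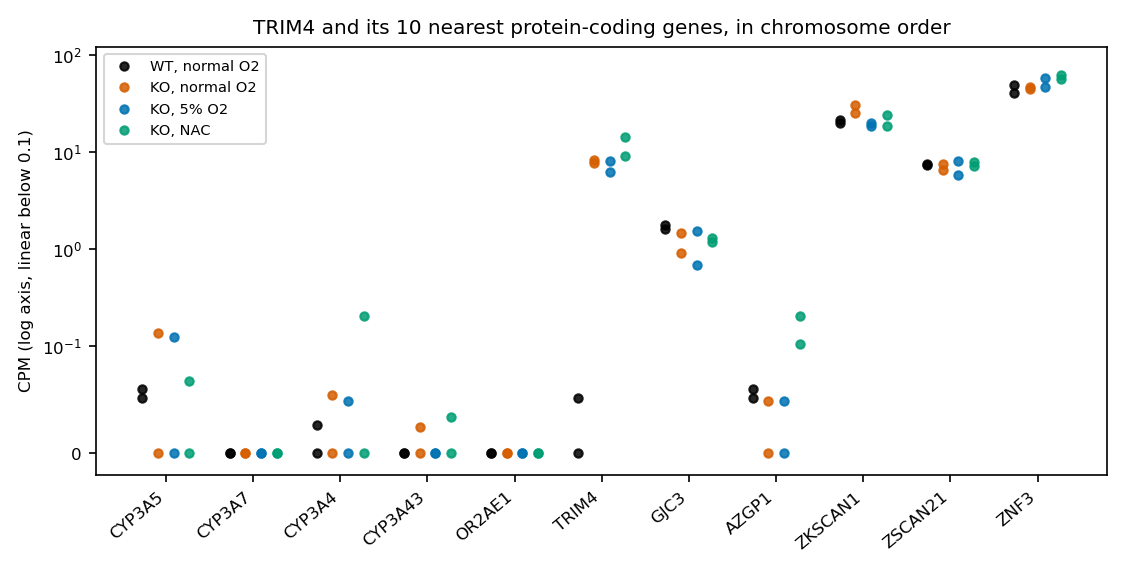
TRIM4 and the 5 protein-coding genes on each side of it in chromosome order, in CPM on an axis that is logarithmic above 0.1 and linear below, with 1 point per library. TRIM4 is the gene whose 2 WT points lie near 0 while all 6 KO points lie above 6 CPM; GJC3 and the zinc finger genes were present in both genotypes.

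Among KO cells, TRIM4 did not pass the test between conditions. Its log2 fold change was 0.57 with NAC (SE 0.26, adjusted p = 0.0998) and -0.16 at 5% O2 (adjusted p = 0.76), each against untreated KO. NAC against 5% O2 gave 0.73 (SE 0.26, adjusted p = 0.0564). Without the first NAC library, which held more TRIM4 than any other, these 2 NAC values were 0.20 (adjusted p = 0.584) and 0.36 (adjusted p = 0.333). TRIM4 was called higher in both NAC comparisons without the second NAC library and with no filter, and with DESeq2 in NAC against 5% O2.

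TRIM8 was the other member called higher in KO against WT, and 0 members were called lower. With TRIM4 that is 2 of 43 members higher, beside 1.34% of all 15916 genes tested, and 0 lower beside 0.622%. The rule singled out TRIM4, so nothing is read from its share. At an unadjusted p under 0.05, 9 members were higher and 2 lower, and 1512 and 1292 of all genes. The median log2 fold change was 0.0736 over the members and -0.00238 over all genes tested. With TRIM4 at the lower limit of its ratio the median was also 0.0736. That was fixed beforehand, since TRIM4 stays above the median either way.

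TRIM8 encodes a RING ligase of inflammatory signalling that is known for modulating NF-kB. Its levels were 35.2 and 33.8 CPM in WT, 49.4 and 49.1 in untreated KO, 39.1 and 42.5 at 5% O2, and 27.7 and 29.0 with NAC. Untreated KO lay highest, NAC lowest, and no pair of groups overlapped. In KO against WT the log2 fold change was 0.51 (SE 0.10, adjusted p = 0.022, by the quasi-likelihood test of edgeR, adjusted after Benjamini and Hochberg). The call was lost whenever 1 of these 4 libraries was left out, and over the alternatives the adjusted p ran from 0.000818 to 0.229.

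TRIM56 and TRIM21 lay just outside the threshold in KO against WT. TRIM56, a ligase of the antiviral response, was at 17.5 and 17.8 CPM in WT and 25.3 and 25.7 in untreated KO, a log2 fold change of 0.53 (adjusted p = 0.0522). TRIM21, the cytosolic antibody receptor, was at 21.2 and 22.7 CPM in WT and 14.3 and 15.3 in untreated KO, a log2 fold change of -0.57 (adjusted p = 0.0542). With 2 libraries in each group, a lack of overlap is a weak description here and elsewhere. It also held between WT and untreated KO for members far from the threshold, such as TRIM59 (0.07, adjusted p = 0.778) and TRIM3 (-0.19, adjusted p = 0.625). Within TRIM56 and within TRIM21 the WT and untreated KO libraries did not overlap. Both were called with DESeq2, with no filter, with only the libraries compared and without either NAC library, as was TRIM41 (0.60, adjusted p = 0.126 over all 8 libraries). With the length and GC trend removed, TRIM56 was at 0.35 (adjusted p = 0.152), TRIM21 at -0.51 (adjusted p = 0.0711) and TRIM41 at 0.50 (adjusted p = 0.194). TRIM28 and TRIM71 had log2 fold changes of 0.06 (adjusted p = 0.768) and 0.10 (adjusted p = 0.559), which turned to -0.05 (adjusted p = 0.747) and -0.02 (adjusted p = 0.905) with the trend removed.

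Many members differed with NAC, and most of them were lower. Against untreated KO, 4 of 43 members rose (9.3%, beside 23.8% of all genes tested) and 17 fell (39.5%, beside 20.8%). The median log2 fold change was -0.377 over the members and 0.0233 over all genes, and 31 of the 43 lay below 0. Without the first NAC library 3 members were higher and 18 lower, beside 21.2 and 19.7% of 16422 genes, and the median was -0.456. Of the 21 calls, only those of TRIM32 and TRIM46 were lost without that library.

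These counts moved with the composition of the transcripts. The median GC content was 51.1% over the tested members and 49.0% over all genes. Among 24 members with GC over 50%, 11 fell and 0 rose, and among the 19 others 6 fell and 4 rose. Spearman's rho between the log2 fold change and GC was -0.427 across the 43 members and -0.499 across 14828 genes, which share libraries and are not independent. When each library's smooth dependence on length and GC of the transcripts was removed, 3 members were higher (6.98%, beside 14.1% of all genes) and 10 lower (23.3%, beside 12.7%), with medians of -0.132 over the members and 0.00334 over all. Of these, 2 and 8 were called in both fits. Values after this removal are given below as trend-removed.

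**Figure D3:**
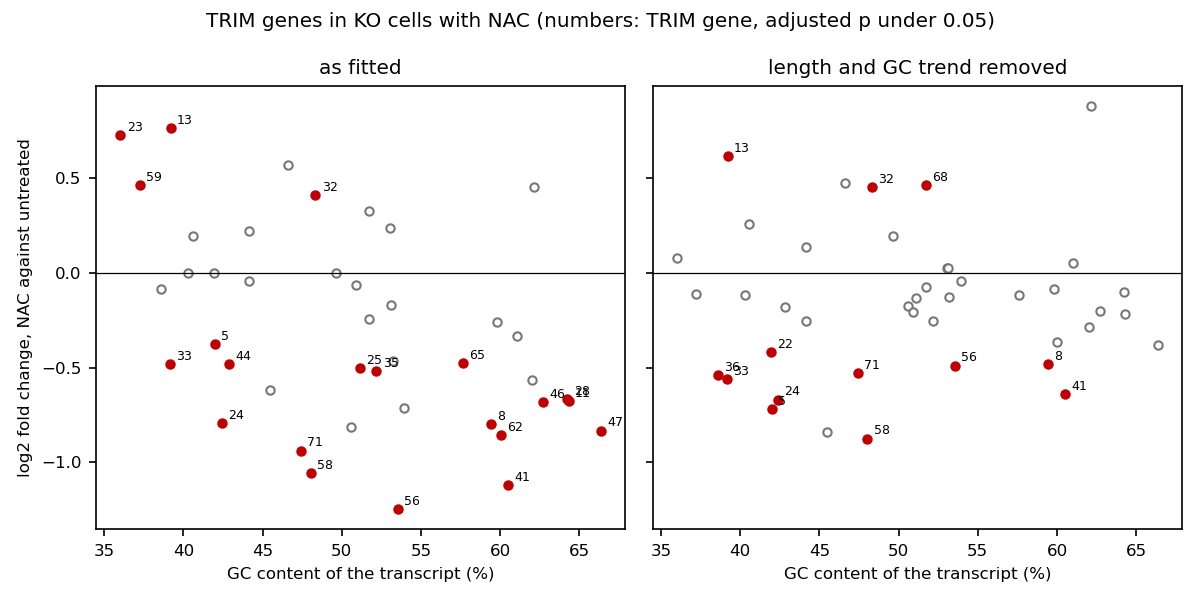
Log2 fold change with NAC against untreated KO cells of each TRIM gene, against the GC content of its transcript in percent, as fitted (left) and with the length and GC trend removed (right); filled, numbered points had an adjusted p under 0.05, and TRIM27 is not drawn. On the left, TRIM23, TRIM59 and TRIM13 rose at GC below 40%, and on the right only TRIM13 of these stayed called.

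The chromatin regulators of the TIF1 class fell with NAC in 3 of 4 members (beside 20.8% of all genes), and in 2 of 4 with the trend removed (beside 12.7%). TRIM28 was at 1597 and 1755 CPM in WT, 1684 and 1815 in untreated KO, 1601 and 1829 at 5% O2, and 1054 and 1154 with NAC. The NAC libraries lay below all others, while the other 3 groups overlapped. Its log2 fold change was -0.66 (SE 0.09, adjusted p = 0.000134) as fitted and -0.10 (adjusted p = 0.222) trend-removed, so the call rests on the trend being left in.

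TRIM24, a reader of histone marks that also acts on p53, was at 182.8 and 169.0 CPM in WT, 164.2 and 157.2 in untreated KO, 131.5 and 140.0 at 5% O2, and 89.6 and 95.8 with NAC. No 2 groups overlapped, and NAC lay lowest. The log2 fold change was -0.79 (SE 0.09, adjusted p = 3.82e-05), and -0.67 (adjusted p = 0.000333) trend-removed. TRIM33, which acts on SMAD signalling, fell by 0.48 on the log2 scale (adjusted p = 0.00113), and by 0.56 (adjusted p = 0.000551) trend-removed. TRIM66 had a log2 fold change of -0.81 (adjusted p = 0.07).

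Of the NHL-repeat members, whose propeller domain binds RNA or proteins, TRIM71 fell, TRIM32 rose and TRIM2 and TRIM3 did not pass. TRIM71 was at 599.6 and 572.9 CPM in WT, 653.1 and 602.6 in untreated KO, 486.1 and 519.4 at 5% O2, and 324.4 and 331.1 with NAC. The WT libraries lay below both untreated KO libraries, the 5% O2 libraries lay below WT, and the NAC libraries lay lowest. The log2 fold change with NAC was -0.94 (SE 0.08, adjusted p = 1.59e-05), and -0.53 (adjusted p = 0.000364) trend-removed. TRIM32, a ligase linked to muscular dystrophy, was at 19.0 and 17.9 CPM in untreated KO and 26.1 and 22.8 with NAC, a log2 fold change of 0.41 (adjusted p = 0.0159). It was 0.45 (adjusted p = 0.0121) trend-removed, and 0.30 (adjusted p = 0.0821) without the first NAC library.

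Of 8 tested members on a list for interferon signalling or virus restriction 3 fell with NAC (beside 39.5% of all tested members and 20.8% of all genes) and 0 rose. The list is not complete, as it leaves out TRIM4 and TRIM65, named above as ligases of RNA sensors. With NAC, TRIM65 was called lower (-0.48, adjusted p = 0.00125), but not trend-removed (-0.12, adjusted p = 0.3), and TRIM4 was not called in either fit. TRIM56 was at 25.3 and 25.7 CPM in untreated KO, 16.1 and 18.1 at 5% O2, and 10.9 and 10.6 with NAC, and no pair of these groups overlapped. Its log2 fold change with NAC was -1.25 (SE 0.13, adjusted p = 2.62e-05), the lowest of the members, and -0.49 (adjusted p = 0.00956) trend-removed. TRIM25 fell by 0.50 on the log2 scale (adjusted p = 0.000478), with -0.13 (adjusted p = 0.199) trend-removed. TRIM5, which binds retroviral capsids, fell by 0.38 (adjusted p = 0.0141), and by 0.72 (adjusted p = 0.000741) trend-removed. Its span overlaps TRIM6 and TRIM34, so its counts leave out reads shared with them. TRIM6, TRIM14, TRIM21, TRIM22 and TRIM38 had adjusted p from 0.11 to 0.998.

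The 2 members anchored in membranes rose with NAC (beside 23.8% of all genes), and 1 of them with the trend removed (beside 14.1%). TRIM13, a ligase of the endoplasmic reticulum that acts in the disposal of misfolded proteins, was at 25.7 and 24.0 CPM in untreated KO, 32.3 and 31.9 at 5% O2, and 39.4 and 44.7 with NAC. The groups did not overlap. Its log2 fold change was 0.76 (SE 0.13, adjusted p = 0.000461), and 0.61 (adjusted p = 0.00294) trend-removed. TRIM59 was at 33.4 and 33.8 CPM in untreated KO and 42.4 and 50.3 with NAC, a log2 fold change of 0.46 (adjusted p = 0.00512). It turned to -0.11 (adjusted p = 0.433) when the trend was removed. TRIM23, which carries an ARF GTPase domain at its end, was at 16.0 and 15.7 CPM in untreated KO and 28.8 and 23.7 with NAC. Its log2 fold change was 0.73 (adjusted p = 0.00154), and 0.08 (adjusted p = 0.685) trend-removed.

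Several other ligases fell. TRIM41, known for acting on protein kinase C, was at 35.5 and 35.0 CPM in untreated KO, 24.8 and 29.7 at 5% O2, and 12.3 and 20.3 with NAC. The NAC libraries lay below all others but apart from each other, and the log2 fold change was -1.12 (adjusted p = 0.00057) with both and -0.80 (adjusted p = 0.000463) without the first. TRIM58, an erythroid ligase that acts on dynein, was at 5.83 and 5.49 CPM in untreated KO and 2.38 and 3.07 with NAC, a log2 fold change of -1.06 (adjusted p = 0.00312). Trend-removed, TRIM41 and TRIM58 were at -0.64 (adjusted p = 0.0245) and -0.87 (adjusted p = 0.0181). TRIM8, described above, had -0.80 (adjusted p = 6.64e-05), and -0.48 (adjusted p = 0.003) trend-removed.

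The calls of 8 more members fell away when the trend was removed. These were TRIM62, a regulator of cell polarity (-0.86), TRIM47 (-0.83), TRIM46, which bundles microtubules in axons (-0.68), TRIM11 (-0.68), TRIM35 (-0.52), TRIM44, a member without a RING finger (-0.48), TRIM65 (-0.48) and, as above, TRIM25. Trend-removed, their log2 fold changes ran from -0.38 (TRIM47) to -0.12 (TRIM65). Conversely TRIM22 (-0.42, adjusted p = 0.0247), TRIM36 (-0.54, adjusted p = 0.00502) and TRIM68 (0.46, adjusted p = 0.0397) were called only with the trend removed. Under every refit at an adjusted p under 0.05, 8 of the 21 calls held, TRIM13 among those that rose and TRIM8, TRIM24, TRIM33, TRIM41, TRIM56, TRIM58 and TRIM71 among those that fell. By the study's criteria, which also ask for a log2 fold change past 1 in size, 3 of the 21 stayed called. These were TRIM41, TRIM56 and TRIM58. TRIM27, which is not among the 21, also met these criteria and was carried by 1 NAC library, as described below.

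**Figure D4:**
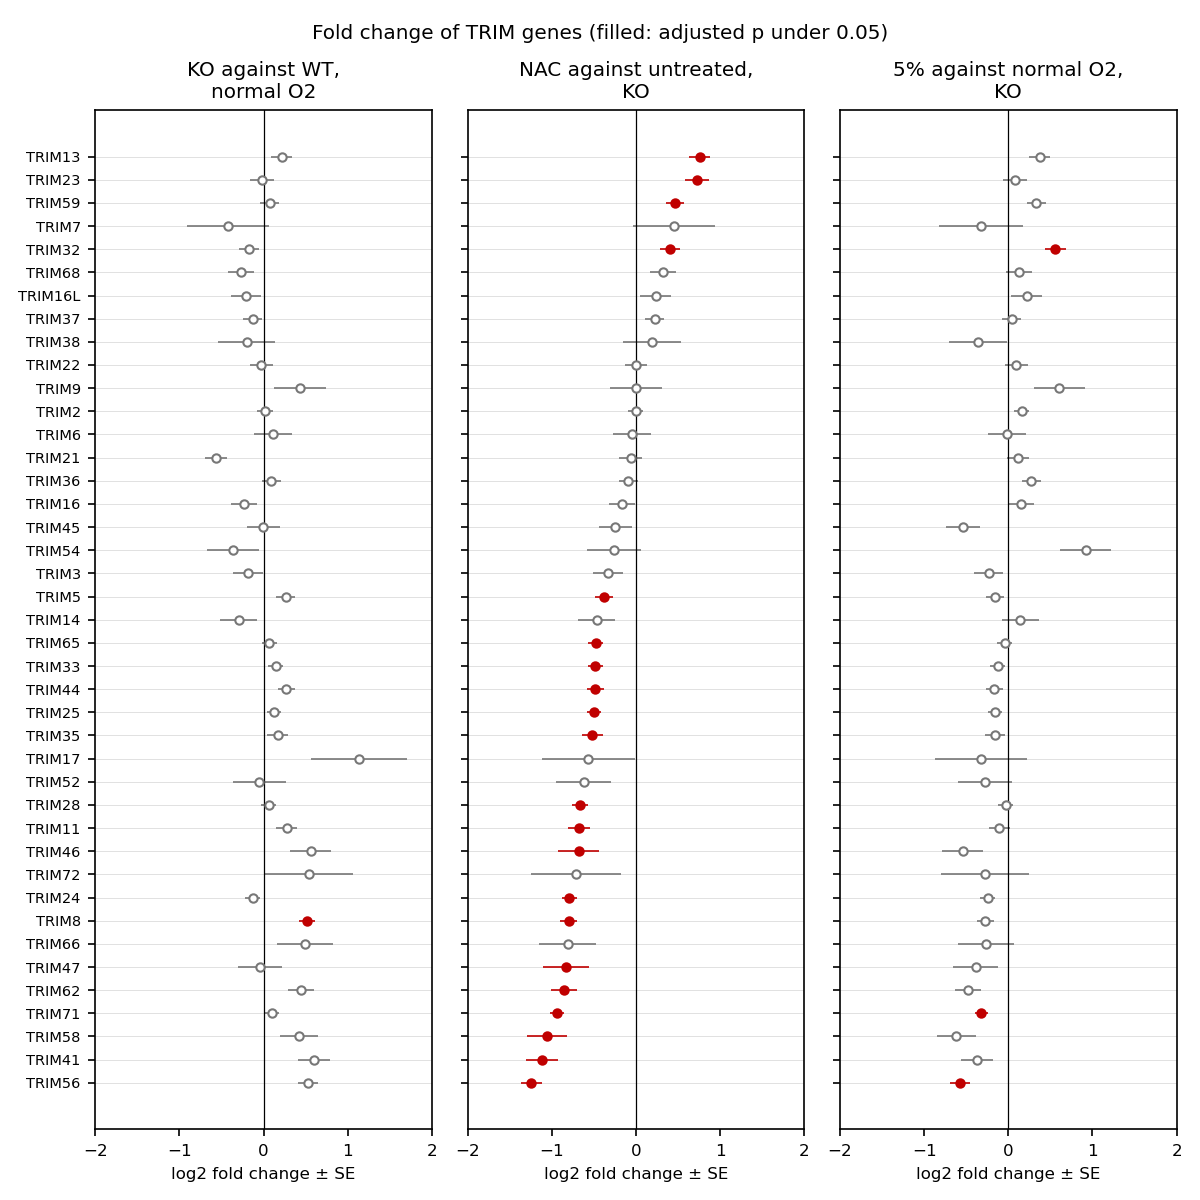
Log2 fold change with its standard error of each tested TRIM gene in KO against WT at normal O2, NAC against untreated KO and 5% O2 against normal O2 in KO, ordered by the middle panel; filled red points had an adjusted p under 0.05. TRIM4 and TRIM27 are not drawn, the 3 panels share the untreated KO libraries, and most filled points in the middle panel lie left of 0, down to -1.25 for TRIM56.

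The promoters of 4 members that moved with NAC are shown, of which TRIM71 and TRIM56 were called lower and TRIM23 and TRIM59 higher as fitted. The latter calls were lost trend-removed, and TRIM13, whose rise held, had no promoter entry. The genes were chosen after their values were seen. Each sequence is the 250 bases before the RefSeq start on GRCh38.p14, on the gene's strand. Capitals mark matches on either strand to CCAAT, to the GC box GGGCGG or to the hypoxia core ACGTG.
TRIM71 (chr3:32817747-32817996, plus strand): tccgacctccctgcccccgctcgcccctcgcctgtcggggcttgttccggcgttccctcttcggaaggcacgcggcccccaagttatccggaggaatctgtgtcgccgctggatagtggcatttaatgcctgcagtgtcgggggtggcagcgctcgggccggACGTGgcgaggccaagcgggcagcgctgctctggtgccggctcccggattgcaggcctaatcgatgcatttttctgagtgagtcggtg
TRIM56 (chr7:101085231-101085480, plus strand): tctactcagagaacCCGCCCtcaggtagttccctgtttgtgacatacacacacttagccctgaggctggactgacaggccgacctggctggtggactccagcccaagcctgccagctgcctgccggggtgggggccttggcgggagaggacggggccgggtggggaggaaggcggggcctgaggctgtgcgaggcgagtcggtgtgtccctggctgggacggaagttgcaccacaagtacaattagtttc
TRIM23 (chr5:65624334-65624583, minus strand): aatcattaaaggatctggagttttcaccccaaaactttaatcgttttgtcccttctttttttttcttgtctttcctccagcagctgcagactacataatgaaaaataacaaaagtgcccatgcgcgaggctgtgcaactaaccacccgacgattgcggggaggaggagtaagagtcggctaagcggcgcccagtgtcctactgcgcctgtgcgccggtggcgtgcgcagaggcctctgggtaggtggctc
TRIM59 (chr3:160449787-160450036, minus strand): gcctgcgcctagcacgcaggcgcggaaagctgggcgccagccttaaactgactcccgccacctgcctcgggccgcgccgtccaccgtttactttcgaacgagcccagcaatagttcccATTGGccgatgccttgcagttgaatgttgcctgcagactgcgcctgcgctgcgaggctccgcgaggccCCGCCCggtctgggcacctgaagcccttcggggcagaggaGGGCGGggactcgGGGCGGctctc

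The GC content of these windows was 66% for TRIM71, 64% for TRIM56, 52% for TRIM23 and 68.4% for TRIM59, against a median of 58% over 35116 promoter windows. The number of CpG dinucleotides was 25, 11, 14 and 25 in the same order. TRIM71 held 1 ACGTG, TRIM56 1 GC box, and TRIM59 1 CCAAT and 3 GC boxes, while TRIM23 held none of the motifs searched. Over all windows 32.0% held CCAAT, 42.6% a GC box and 18.5% ACGTG. The antioxidant core TGACNNNGC (10.9% of windows) and the E-box CACGTG (6.35%), which contains ACGTG, were absent from these 4. A match is a description of letters, not of a bound site. Of the 72 members 56 had a promoter entry, and TRIM4 had none.

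Few members differed at 5% O2, and their shares were near those of all genes. In KO at 5% O2 against normal O2, 1 of 43 members rose (2.33%, beside 3.68% of all genes) and 2 fell (4.65%, beside 4.13%). The medians were -0.154 over the members and -0.00025 over all genes. TRIM32 was at 19.0 and 17.9 CPM at normal O2 and 28.3 and 26.0 at 5% O2, with WT at 20.8 and 20.7. Both 5% O2 libraries lay above both others, and the log2 fold change was 0.56 (SE 0.12, adjusted p = 0.0214), and 0.56 (adjusted p = 0.0345) trend-removed. TRIM56 and TRIM71, whose values are given above, were lower at 5% O2, by log2 fold changes of -0.57 (adjusted p = 0.0214) and -0.32 (adjusted p = 0.0349). Trend-removed, these were -0.23 (adjusted p = 0.317) and -0.13 (adjusted p = 0.304). Each of the 3 calls was lost when any 1 of the 4 libraries compared was left out, and the adjusted p over the alternatives reached 0.247 for TRIM32, 0.317 for TRIM56 and 0.307 for TRIM71. At an unadjusted p under 0.05, 5 of 43 members were higher and 8 lower, and 1971 and 1970 of 15916 genes.

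The NAC and 5% O2 comparisons share the untreated KO libraries, and the treated groups were therefore also compared directly. Time in treatment may differ between them, as said above. NAC against 5% O2 gave 2 of 43 members higher (beside 15.5% of all genes) and 14 lower (beside 13.6%), with medians of -0.323 over the members and 0.0379 over all. Trend-removed, 0 were higher (beside 8.4% of all genes) and 9 lower (20.9%, beside 8.28%), of which 7 were called in both fits. TRIM54, a striated muscle ligase of microtubules, was at 2.85 and 2.68 CPM at 5% O2 and 1.36 and 1.07 with NAC, with untreated KO at 1.44 and 1.48. The NAC libraries lay below the others, and the log2 fold change was -1.18 (SE 0.31, adjusted p = 0.0151), and -1.06 (adjusted p = 0.0397) trend-removed. That call was lost when either 5% O2 library was left out. Against untreated KO, NAC gave -0.26 for TRIM54 (adjusted p = 0.541).

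TRIM71 (-0.62, adjusted p = 0.000517), TRIM28 (-0.64, adjusted p = 0.000764), TRIM24 (-0.55, adjusted p = 0.0013) and TRIM8 (-0.53, adjusted p = 0.0027) were lower with NAC than at 5% O2. These 4 held under every refit at an adjusted p under 0.05 and none of them by the study's criteria, and trend-removed, TRIM28 was at -0.30 (adjusted p = 0.00889). TRIM13 (0.39, adjusted p = 0.0363) and TRIM23 (0.64, adjusted p = 0.00683) were higher as fitted and were not called trend-removed. The count fell to 5 members without the second 5% O2 library.

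TRIM27, a ligase gene in the extended major histocompatibility region of chromosome 6 (chr6:28903002-28923985), was carried by 1 library in each of 2 groups. Its counts were 417 and 13 in WT, 21 and 16 in untreated KO, 24 and 26 at 5% O2, and 504 and 5 with NAC. The first WT and first NAC libraries stood far above the others, which did not exceed 26 counts. Of its transcript's words 93.6% also lay on alternate scaffolds. Only 1 other gene of 28278 was over 5 times the highest other library and over 1 CPM in both of these libraries, IFI27L2 on chromosome 14, with 181 and 2 counts in WT, 273 and 0 with NAC and 0 elsewhere, and 79.6% of its words lay on alternate scaffolds. The log2 fold change of TRIM27 was -3.73 in KO against WT (adjusted p = 0.23) and 0.50 without the first WT library. With NAC it was 3.81 (adjusted p = 0.0612), -1.50 without the first NAC library and 4.78 (adjusted p = 0.00179) without the second. DCN, LUM and COL3A1, the fibroblast genes of the first NAC library, were at 0 in the first WT library.

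**Figure D5:**
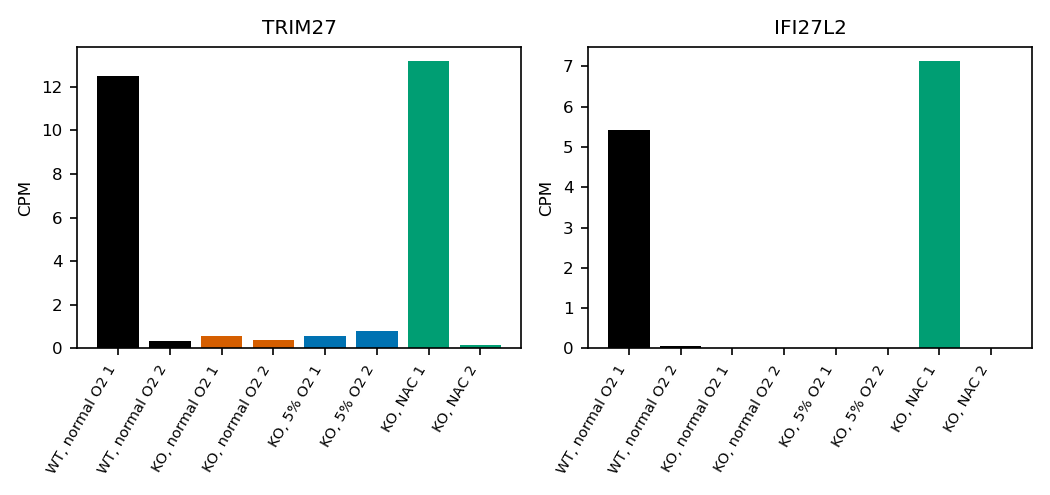
TRIM27 (left) and IFI27L2 (right) in CPM, 1 bar for each of the 8 libraries, coloured by group. In each gene the first WT and the first NAC library stand above the other 6, at 12.5 and 13.2 CPM for TRIM27 and 5.42 and 7.13 CPM for IFI27L2.

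Related genes were taken from lists, which are described by counts. Of 7 tested TRIM family genes with other names, MID2, a microtubule-binding ligase, was lower in KO than in WT, with means of 2.30 and 8.39 CPM (log2 fold change -1.87, adjusted p = 0.00889, and -1.92 trend-removed with adjusted p = 0.0152). PML, which builds nuclear bodies, fell with NAC by 0.99 on the log2 scale (adjusted p = 2.99e-05), and at 5% O2 by 0.52 (adjusted p = 0.0157). Trend-removed, PML was at -0.38 with NAC (adjusted p = 0.00909) and at -0.27 at 5% O2 (adjusted p = 0.145). BSPRY rose with NAC (0.49, adjusted p = 0.048) and at 5% O2 (0.68, adjusted p = 0.0453), and the latter call was lost trend-removed (0.71, adjusted p = 0.0828).

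The E2 enzymes that serve TRIM ligases rose with NAC in 9 of 14 genes (beside 23.8% of all genes) and fell in 1 (beside 20.8%). The median log2 fold change was 0.472 (0.0233 over all genes). UBE2W (log2 fold change 1.08), UBE2E1 (0.96) and UBE2N (0.89) rose, and UBE2O fell from a mean of 151.1 to 75.5 CPM. Trend-removed, 4 were higher (beside 14.1%) and 3 lower (beside 12.7%), with a median of 0.0233. In KO against WT 0 of the 14 passed, beside 1.34% higher and 0.622% lower over all genes. At 5% O2 3 rose (beside 3.68% of all genes), and 0 of them stayed called trend-removed.

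Of 13 tested silencing partners of TRIM28, 5 rose (beside 23.8% of all genes) and 5 fell (beside 20.8%) with NAC. Trend-removed, 2 were higher (beside 14.1%) and 6 lower (beside 12.7%). As fitted, CHD4, the remodeller of the NuRD complex, fell by 1.05 on the log2 scale and CBX5, the heterochromatin protein HP1 alpha, by 0.89. By contrast CBX3, HP1 gamma, rose by 1.01. Trend-removed, CHD4 (-0.61) and CBX5 (-0.68) were still called and CBX3 (0.03, adjusted p = 0.79) was not. In KO against WT 0 of the 13 passed, beside 1.34% higher and 0.622% lower over all genes.

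Of 15 listed genes linked to TRIM71 or to the LIN28 and let-7 pathway, 8 fell with NAC (beside 20.8% of all genes). With NAC 0 rose (beside 23.8%), and the median was -0.536. Those that fell included the Argonaute genes AGO2 (-1.27) and AGO1 (-1.18) and the microRNA processing gene DICER1 (-0.66). Trend-removed, 6 were lower (beside 12.7%) and 1 higher (beside 14.1%), with a median of -0.178. AGO1 was also higher in KO than in WT (0.49, adjusted p = 0.0133). At 5% O2 0 rose (beside 3.68% of all genes) and 3 fell (beside 4.13%), TNRC6A (-0.61), TNRC6C (-0.51) and AGO2 (-0.38). Of these, TNRC6A alone stayed called trend-removed (-0.44, adjusted p = 0.0445).

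Of 26 tested genes of the RIG-I pathway and interferon response, 3 were higher in KO than in WT (beside 1.34% of all genes) and 0 lower (beside 0.622%). These were IRF7, an interferon regulatory factor (1.18, adjusted p = 0.0284), MAVS, the mitochondrial adaptor of RIG-I (0.57, adjusted p = 0.0197), and BST2, which tethers virions (0.76, adjusted p = 0.0197). Trend-removed, BST2 alone of them passed (0.85, adjusted p = 0.0188), and SAMHD1, which degrades nucleotides, was lower (-0.40, adjusted p = 0.0465). The median over the list was -0.00487 as fitted. With NAC 4 rose (beside 23.8% of all genes), among them TBK1 (1.00) and IFIT1 (1.16), and 4 fell (beside 20.8%), among them MAVS (-1.11) and IRF7 (-1.14). Trend-removed, 2 were higher (beside 14.1%) and 3 lower (beside 12.7%). TBK1 was then at 0.29 (adjusted p = 0.184), IFIT1 at 0.92 (adjusted p = 0.0451), MAVS at -0.38 (adjusted p = 0.00784) and IRF7 at -0.75 (adjusted p = 0.0437). At 5% O2 0 rose (beside 3.68% of all genes) and 2 fell (beside 4.13%), MAVS (-0.66, adjusted p = 0.00812) and BST2 (-0.65, adjusted p = 0.0222). Trend-removed, MAVS was at -0.33 (adjusted p = 0.0855) and BST2 at -0.71 (adjusted p = 0.0378). Mean BST2 levels were 15.4 CPM in WT, 26.0 in untreated KO and 16.6 at 5% O2.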

How the data were processed

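RNA from WA26 hESCs was sequenced in 8 analysed libraries of 4 groups, and 4 of the 12 labelled samples were not analysed here. The authors trimmed the reads, ran HISAT2 against hg38 and summed reads by gene with featureCounts at its defaults, under which strand is ignored and multi-mapping or ambiguous reads are dropped. FastQC 0.11.9 is listed in the submitters' processing notes. The authors deposited whole-number counts, not normalized. The annotation used for counting is not given in the sources used here.

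Members were chosen by symbol, and both members and gene lists were chosen with earlier results of these data known. Genes were filtered with filterByExpr of edgeR 4.0.16 (minimum count 10) in R 4.3.3, scaled by TMM and put to its quasi-likelihood test, with 1 term per group over 8 libraries. P-values were adjusted by Benjamini-Hochberg over 15916 genes, and a gene was called at an adjusted p under 0.05. SE is the absolute log2 fold change over the square root of F. The fit left 4 residual degrees of freedom, the biological coefficient of variation was 13.7%, and replicates differed by a chi-square per degree of freedom of 9.53 to 30.7. Named are TRIM4 and its neighbours, members called in any comparison, the 5 most abundant per kilobase, the members of the classes and those at 0, and genes of other lists where called; ZNF723, IFI27L2 and members named because they missed the threshold or were called only with the trend removed were named after their values were seen. Lengths and GC came from GENCODE 44 and were known for 93.2% of tested genes. The trend was removed with mgcv 1.9.3. The alternatives were scaling by RLE or upper quartile, DESeq2 1.42.0, other filters, the replicate block, fewer libraries, the trend and the study's criteria (unadjusted p under 0.05 and a log2 fold change past 1 in either direction). Scripts were tested on simulated data.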

Additional observations from a re-analysis of the deposited data

How the results depend on the processing

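With 2 libraries per group and 4 residual degrees of freedom, single calls near the threshold depend on 1 library. TRIM4, which the rule singled out, was called in every refit of KO against WT that tested it. Where only 1 member was left in such a refit, that member was TRIM4, and nothing is read from it. In KO against WT the number of members called was 2, against 5 with DESeq2, 6 with no filter, 1 with at least 10 counts in every library (TRIM4 is then not tested) and 5 with only the libraries compared. It ran from 1 to 6 when a library was left out, and was 1 without either WT or either untreated KO library and 6 without either NAC library; the median ran from 0.0545 to 0.111. With NAC against untreated KO the number was 21, against 13 with the length and GC trend removed, 4 by the study's criteria, and 17 to 24 with a library left out. Its median was -0.377, against -0.259 with no filter, -0.479 with at least 10 counts in every library, -0.132 with the trend removed, and -0.456 to -0.309 with a library left out. At 5% O2 the number was 3, against 12 with only the libraries compared, 1 with the trend removed, 0 by the study's criteria, and 0 to 11 with a library left out; it was 0 without either untreated KO or either 5% O2 library, 11 without the first NAC library and 10 without the second. Its median was -0.154, against -0.0613 with the trend removed and -0.153 to -0.0536 with a library left out. For NAC against 5% O2 the number was 16, against 9 with the trend removed, 2 by the study's criteria, and 5 (without the second 5% O2 library) to 18 with a library left out. Its median was -0.323, against -0.203 with no filter, -0.199 with the trend removed and -0.349 to -0.228 with a library left out. Among members called as fitted and TRIM27, the values that turned sign were those of TRIM59 with NAC (-0.113, trend removed) and of TRIM27 (0.497 in KO against WT without the first WT library, and -1.5 and -2.04 with NAC against untreated KO and against 5% O2 without the first NAC library). Without the second library of WT or NAC in turn, the TRIM27 values were -4.7, 4.78 and 4.24. Fewer samples or genes tested go with the library and filter settings by construction, and the cause of the other differences was not tested.

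Replicate numbers are shared across groups in the labels, but deviations from the group means correlated by only -0.0226 to 0.0816 between same-numbered libraries, so the numbers were not taken as pairs. With the replicate block the members called were 2 in KO against WT, 21 with NAC, 3 at 5% O2 and 16 for NAC against 5% O2, and the block changed no call of a member. Over all genes the block moved the calls from 312 to 366, from 7100 to 7173, from 1243 to 1417 and from 4635 to 4796. Other fits moved the calls over all genes by more than 1.5 times. In KO against WT there were 860 with DESeq2, 1252 with no filter, 1124 with only the libraries compared and 195 with the trend removed. With NAC there were 3971 with the trend removed and 1435 by the study's criteria. At 5% O2 there were 2144 with DESeq2, 2220 with no filter, 3009 with only the libraries compared, 229 with the trend removed and 321 by the study's criteria. For NAC against 5% O2 there were 3050 with only the libraries compared, 2473 with the trend removed and 703 by the study's criteria.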
